A study of Mus musculus with 6 samples.

Results

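The genes described here are 40 mouse genes of mitosis and the spindle, 40 of the 52459 genes in the count table. They were chosen by name for their part in cell division, with earlier results of these data known. All 40 had counts in every library and passed the filter on low counts, which kept 13453 genes. RNA-seq was done on megakaryocytic-erythroid progenitors (MEPs), marrow cells that give rise to red cells and to the megakaryocytes that shed platelets. The wild-type (WT) group and the Tmprss6-/- (KO) group had 3 libraries each. Tmprss6 is a liver protease that holds down the iron hormone hepcidin, and its loss leaves mice short of iron. The knockout is of the whole animal, no other allele or treatment is given for either genotype, and the age of the mice is not given in the sources used here. Each library was 1 pool of cells from 3 mice, sorted after lineage depletion as negative for lineage markers, Sca, Fc gamma receptors, CD105 and CD41 and positive for cKit and CD150. Libraries are called WT 1 to 3 and KO 1 to 3 after their replicate numbers, and a pair is the WT and the KO library of the same number. With 3 pools a genotype, the tests measure the spread between pools.

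In mitosis the kinase CDK1 with a B-type or A-type cyclin drives entry, microtubule motors build the spindle, kinetochores attach chromosomes to it, and the spindle checkpoint holds back anaphase until all are attached. The anaphase-promoting complex then has cyclin B and securin destroyed, the chromosomes part and the cell divides. Most of these genes are transcribed together late in the cell cycle, under the DREAM and B-Myb-MuvB complexes and FOXM1, so that their RNA is low in resting cells and high in cells in G2 and M. Red cell precursors divide several times as they mature. In bulk samples, a difference in the share of cells in division and one in these RNAs per dividing cell cannot be told apart.

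Total counts were 13402209 to 22986837 per library. Tmprss6 itself had 5, 4 and 0 counts in WT 1 to 3 and 0, 5 and 0 in KO 1 to 3, too few to check a label. KO 2 stood apart from the other libraries, and results that rest on it are given with and without it or pair by pair. All 8 MEP markers were detected in each library, with a summed level of 1962 to 4222 CPM (read counts scaled by TMM to a common library size) in WT and 2108 to 3651 CPM in KO. The 13 late erythroblast markers summed to 678, 686 and 808 CPM in WT 1 to 3 and to 777, 6171 and 1076 CPM in KO 1 to 3. KO 2 thus held several times the late erythroblast RNA of any other library, and the same was true of granulocyte and macrophage RNA. The 10 neutrophil precursor markers summed to 83.0 to 378 CPM in WT and to 3401 CPM in KO 2, the 10 eosinophil, basophil and mast cell markers to 143 to 796 CPM and 8419 CPM, and the 10 macrophage markers to 78.4 to 223 CPM and 2734 CPM. In KO 1 and KO 3 these lists summed to 120 and 279 CPM, 285 and 41.7 CPM, and 124 and 278 CPM. Lymphoid and plasma cell markers were at 46.5 to 188 CPM in WT and at 149, 1382 and 1094 CPM in KO 1 to 3, and megakaryocyte markers at 181 to 236 CPM and at 193 to 356 CPM. In KO 2 no marker of any list was at 0 counts, while in KO 3 the eosinophil, basophil and mast cell list had 5 of its 10 markers at 0, Epx, Prg3 and Mcpt8 among them. What part those transcripts had in the values of KO 2 below was not tested.

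**Figure D1:**
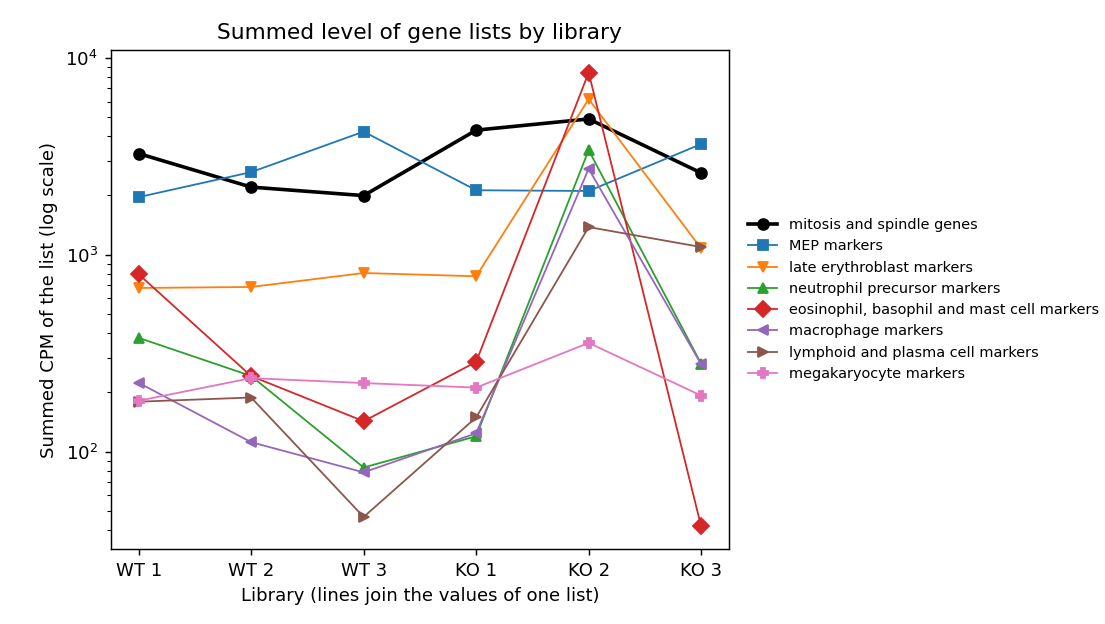
Summed CPM of the mitosis and spindle genes (black) and of 7 lists of cell type markers in each library, on a log axis. KO 2 is highest for the late erythroblast, neutrophil, eosinophil, macrophage and lymphoid lists, while the mitosis and spindle genes reach 4896 CPM in KO 2 and 4295 CPM in KO 1.

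Mitosis and spindle genes were higher in KO than in WT as a group, by a margin that differed from pair to pair and with no single gene past the genome-wide threshold in the 6 libraries. Together they took 0.308%, 0.229% and 0.205% of all counts in WT 1 to 3 and 0.388%, 0.524% and 0.264% in KO 1 to 3. Their summed level was 3266, 2206 and 1997 CPM in WT and 4295, 4896 and 2603 CPM in KO. The groups overlapped, since KO 3 lay below WT 1, but within each pair the KO library had the higher sum. Of the 40 genes 29 were highest in KO 2 and 11 in KO 1, and 37 had their lowest level in a WT library.

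Over all 6 libraries edgeR's quasi-likelihood test called 0 of 13453 genes at an adjusted p under 0.05 (0.0% higher in KO), and 0 of the 40. The log2 fold change, KO over WT, was above 0 for 40 of 40, with a median of 0.74 and a range of 0.19 to 1.21. Among all genes tested 49.3% were above 0, with a median of -0.0048. The number at an unadjusted p under 0.05 was 8 of the 40, all higher in KO, which is 20.0% against 1.53% of all genes tested. With the replicate number as a block edgeR still called 0 genes, with 23 of the 40 at an unadjusted p under 0.05 against 2.18%. DESeq2 called 6 genes in all, 4 of them higher in KO (0.0297%), and 0 of the 40, with 13 of the 40 at an unadjusted p under 0.05 against 2.31%. All 3 KO libraries lay above all 3 WT libraries in 10 of the 40 genes, or 25.0% against 2.27% of all genes: Ccna2, Plk1, Bub1, Aurkb, Cdca8, Kif20a, Prc1, Hmmr, Cdc20 and Ect2. KO was higher in 3 of 3 pairs for 31 genes, or 77.5% against 11.5%, in 2 pairs for 8, and in 1 pair for Kif4. These genes were taken as a set whose members are known to move together, so their shares are not 40 separate observations. The set was also chosen with earlier results of these data known.

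**Figure D2:**
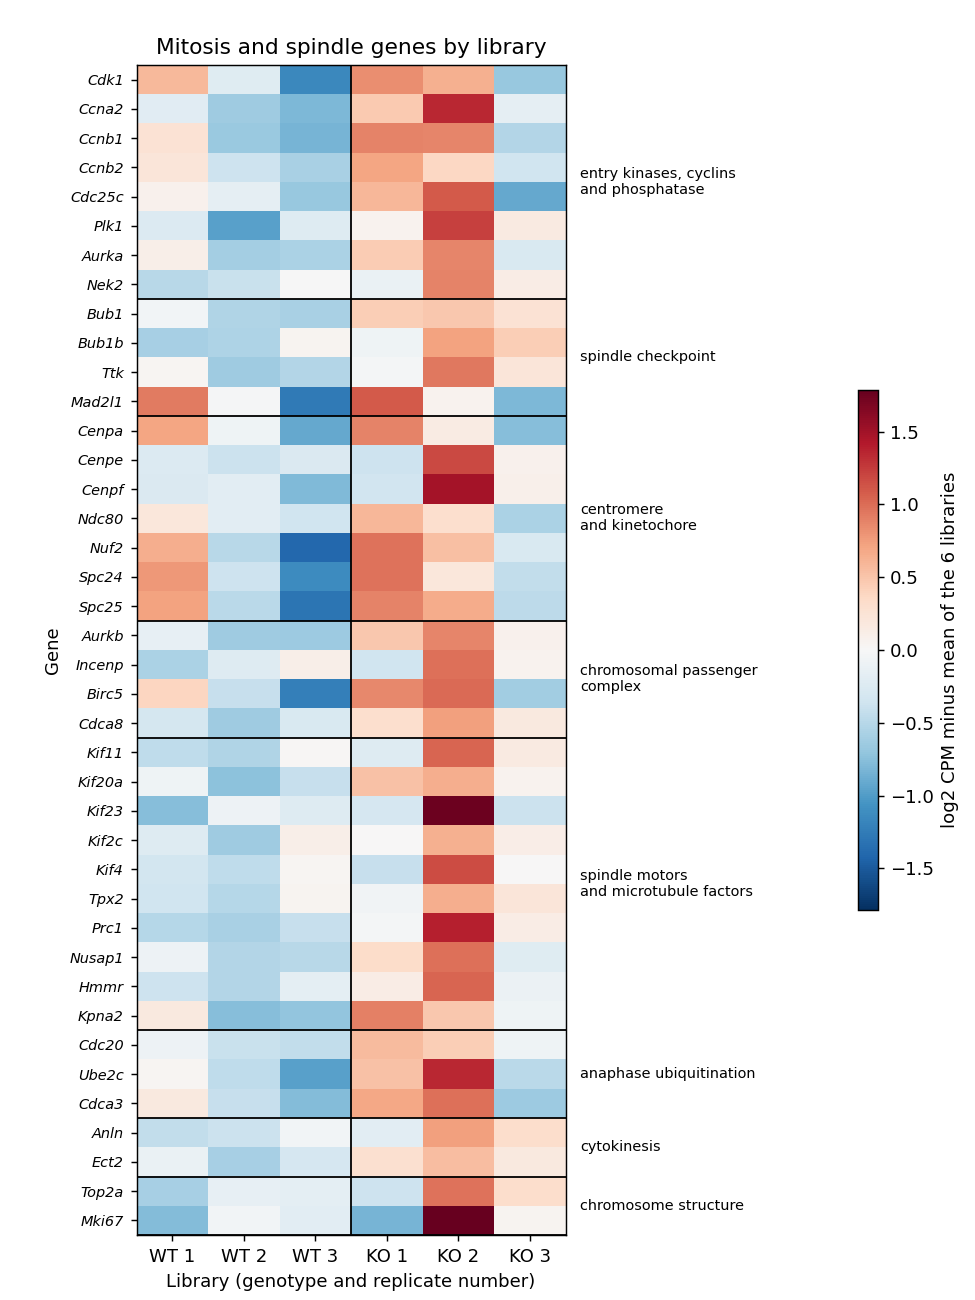
Level of each gene in each library as log2 CPM minus its mean over the 6 libraries (red above, blue below), with genes in rows by role and libraries in columns. KO 2 holds the highest level of 29 genes and KO 1 of 11, and the kinetochore genes Nuf2, Spc24 and Spc25 are high in WT 1 and KO 1 and low in WT 3.

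Pair 2 carried the largest differences. Its median log2 difference, KO minus WT, was 1.32, from 0.086 for Mad2l1 to 2.20 for Plk1, and all 40 genes were higher in KO. Pair 1 had a median of 0.39 with 35 of 40 higher, from -0.12 for Cenpe to 0.73 for Kpna2, and pair 3 a median of 0.37 with 35 of 40 higher, from -0.23 for Cdc25c to 1.12 for Nuf2. The medians of all genes were -0.013, -0.0024 and -0.0095 in pairs 1 to 3. For 37 of the 40 genes the difference in pair 2 exceeded both others. Without KO 2 the median log2 fold change dropped from 0.74 to 0.44, with 38 of 40 still above 0 against 49.5% of all genes, and 0 of the 40 at an unadjusted p under 0.05.

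**Figure D3:**
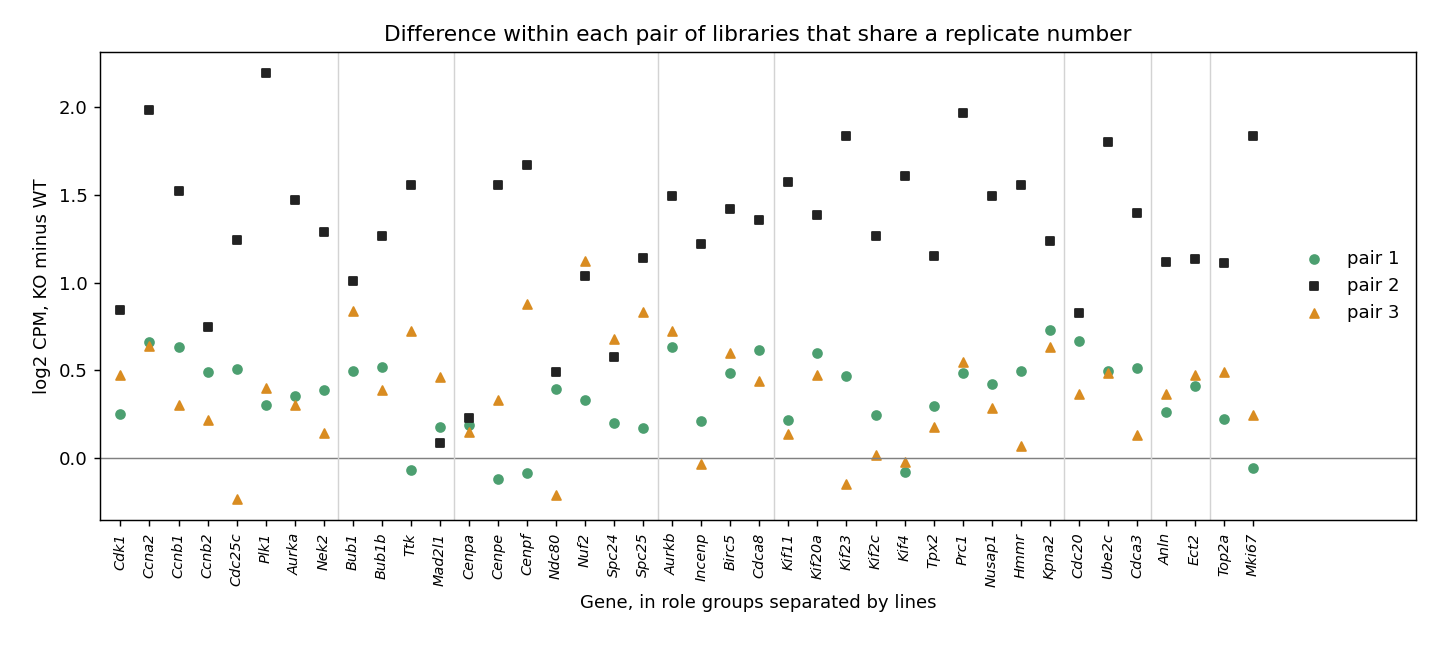
Log2 CPM of the KO library minus that of the WT library with the same replicate number, for each gene in each pair. Squares of pair 2 lie above the circles of pair 1 and triangles of pair 3 for 37 of 40 genes, and 35 circles and 35 triangles lie above 0.

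Pairs 1 and 3 were also fitted on their own, blocked by replicate number, a comparison chosen with results of these data known. It has 1 residual degree of freedom and rests on a prior of 14.5. It called 117 of 13572 genes, 35 higher in KO (0.258%) and 82 lower. Of the 40 genes 6 rose and 0 fell: Kpna2, Aurkb, Ccna2, Bub1, Birc5 and Cdca8. Those at an unadjusted p under 0.05 numbered 24 of the 40, or 60.0% against 5.45% of all genes, all higher in KO. The log2 fold change was above 0 for 39 of 40 against 48.5%, with Kif4 at -0.056, and its median was 0.35. Without the block 0 genes passed, and with offsets for transcript length 3 genes passed and 0 of the 40. The direction was then positive for 39 and for 40 genes.

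Markers of other cells differed between genotypes in the pairs 1 and 3 too. Of the 13 late erythroblast markers 12 had a log2 fold change above 0 there, against 48.5% of all genes. Their median was 1.10, with pair medians of 0.68 and 1.51. Against 0.258% of all genes, 5 of the 13 rose: Hbb-bs (log2 1.68, edgeR adjusted p = 0.00012), Hba-a1 (1.30), Hbb-bt (1.30), Alas2 (1.93) and Trim10 (1.88). The summed level of the 13, given above, shows this little because Ermap, at 249 to 569 CPM in the libraries of these pairs, made up much of it. Hbb-bs, a beta-globin gene with a near-identical copy in Hbb-bt, was at 42.7 and 26.6 CPM in WT 1 and WT 3 and at 98.6 and 121.5 CPM in KO 1 and KO 3. In the eosinophil, basophil and mast cell list 5 genes fell (Prg2, Epx, Prg3, Ear1 and Mcpt8), against 82 of all 13572 genes. Of the 9 genes of that list tested 2 were above 0, Ms4a2 (0.48) and Cpa3 (0.062). In the neutrophil precursor list 2 genes fell (Ltf and Ngp), while 3 of the 9 tested, Mpo, Prtn3 and Ctsg, were above 0. Its pair medians were -3.02 and 0.36. Of the 10 macrophage markers 9 were above 0 (median 0.80) and 0 were called, with pair medians of -0.88 and 2.71. The plasma cell gene Jchain rose. What part these shifts had in the rise of the 6 mitotic genes was not tested.

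**Figure D4:**
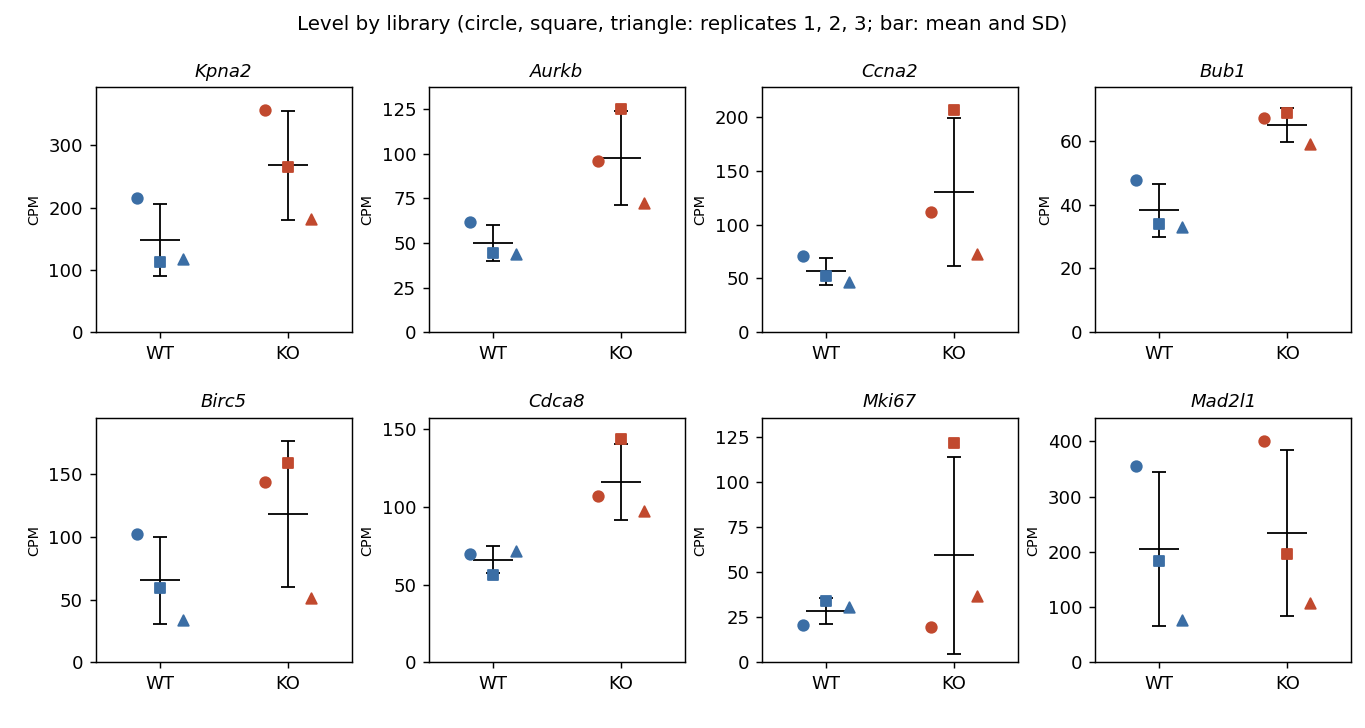
CPM in each library for the 6 genes that rose in the pairs 1 and 3 and for Mki67 and Mad2l1, with bars for the mean and SD of 3 libraries. Aurkb, Ccna2, Bub1 and Cdca8 have all KO libraries above all WT libraries, Kpna2 and Birc5 overlap, Mki67 is high in KO 2 alone (122 CPM), and Mad2l1 follows the replicate number.

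Of the 8 kinases, cyclins and phosphatase of mitotic entry, all had a log2 fold change above 0 over 6 libraries (median 0.72), with pair medians of 0.44, 1.38 and 0.30. Ccna2 encodes cyclin A2, which partners CDK2 in S phase and CDK1 in G2. It stood at 70.6, 52.0 and 46.6 CPM in WT 1 to 3 and at 112, 206 and 72.6 CPM in KO 1 to 3. Every KO library lay above every WT library, although KO 3 passed WT 1 by little. The log2 fold change was 1.21 (SE 0.41) over 6 libraries, the largest of the 40 genes, and 0.71 without KO 2. Ccna2 rose 1.57-fold in the pairs 1 and 3 (log2 0.65, SE 0.12, edgeR adjusted p = 0.015, with 0.0067 to 1.00 over the settings tried). Ccnb1, the cyclin B1 that takes CDK1 into mitosis, had the highest mean CPM of the group over the 6 libraries, at 198, 105 and 93.1 CPM in WT and 307, 302 and 115 CPM in KO. KO 3 lay between WT 1 and WT 2, and the log2 fold change was 0.87 (SE 0.47). Per kilobase of transcript the WT level of Ccnb1 was 53.0 CPM, below the 92.3 CPM of Ccnb2. Plk1, the polo-like kinase of spindle poles and kinetochores, was at 39.2, 23.5 and 39.3 CPM in WT and at 48.2, 108 and 51.9 CPM in KO. The groups did not overlap, but KO 2 was far above the other KO libraries, and the log2 fold change of 1.03 (SE 0.40) dropped to 0.56 without it. Cdk1 itself was at 149, 85.9 and 45.1 CPM in WT and at 177, 154 and 62.5 CPM in KO, higher in each pair but spread 3.30-fold among the WT libraries. Ccnb2, a second B-type cyclin, Aurka, a kinase of the spindle poles, and Nek2, a kinase of centrosome separation, had log2 fold changes of 0.51, 0.75 and 0.66 (0.47, 0.46 and 0.30 without KO 2) and were higher in 3 of 3 pairs. Cdc25c, the phosphatase that activates CDK1, was the lowest of the group at 6.39 to 25.8 CPM and was lower in KO in pair 3, with a log2 fold change of 0.70 that was 0.24 without KO 2.

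All 4 spindle checkpoint genes had a log2 fold change above 0 (median 0.75; pair medians 0.33, 1.14 and 0.59). Bub1, a checkpoint kinase that also marks the centromere, was at 47.9, 34.1 and 33.0 CPM in WT and at 67.5, 68.8 and 59.1 CPM in KO. The groups were apart, the KO libraries lay close together, and KO 2 did not stand out. WT averaged 38.3 ± 8.28 CPM and KO 65.1 ± 5.29 CPM (SD, n = 3), with a log2 fold change of 0.76 (SE 0.27) that was 0.72 without KO 2. The rise of Bub1 in the pairs 1 and 3 was 1.58-fold (log2 0.66, SE 0.14, edgeR adjusted p = 0.045, with 0.023 to 1.00 over the settings tried). Mad2l1, whose product MAD2 blocks the anaphase activator CDC20, was at 354, 184 and 77.7 CPM in WT and at 399.8, 195.5 and 107 CPM in KO. Its level followed the replicate number, with a 4.56-fold span among the WT libraries against a fold of 1.14 between genotypes (log2 fold change 0.19, SE 0.63). Bub1b, which encodes the checkpoint protein BUBR1, and Ttk, the MPS1 kinase, had log2 fold changes of 0.73 and 0.77 (0.53 and 0.43 without KO 2), and Ttk was lower in KO in pair 1 (-0.068).

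The 7 centromere and kinetochore genes were all above 0 (median log2 fold change 0.58; pair medians 0.18, 1.04 and 0.68), and 0 of them rose in the pairs 1 and 3. Cenpa, the histone H3 variant that marks centromeres, was at 351, 204 and 115 CPM in WT and at 398, 239 and 127 CPM in KO. Like Mad2l1 it followed the replicate number, and its log2 fold change was 0.19 (SE 0.52). Cenpf, a large kinetochore protein of G2 and M, was at 12.9, 13.5 and 8.89 CPM in WT and at 12.1, 43.4 and 16.5 CPM in KO. Cenpe, the kinesin that carries chromosomes to the spindle equator, was at 18.4, 16.7 and 18.2 CPM in WT and at 16.9, 49.3 and 22.9 CPM in KO. Both were high in KO 2, slightly lower in KO in pair 1, and their log2 fold changes of 1.03 (SE 0.51) and 0.74 (SE 0.43) were 0.28 and 0.16 without KO 2. The 4 subunits of the NDC80 complex, which holds microtubules at the kinetochore, differed in how they varied among WT libraries. Nuf2, Spc24 and Spc25 spanned 4.13-fold, 3.73-fold and 4.08-fold there and Ndc80 1.47-fold. Per kilobase of transcript their WT level was 19.1, 63.5, 48.8 and 16.1 CPM, in the same order. Within pairs Nuf2 had log2 differences of 0.33, 1.04 and 1.12, while Ndc80 had 0.39, 0.49 and -0.21.

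The chromosomal passenger complex had the largest share of genes that rose in the pairs 1 and 3, 3 of 4 against 0.258% of all genes. No test set it against the other groups, and the share depended on the fit. Of its genes Aurkb alone passed with DESeq2, with RLE scaling or without the filter on low counts. None passed without the block or with offsets for transcript length. This complex of the kinase Aurora B and its partners INCENP, survivin and borealin corrects wrong attachments and then moves to the midzone. Aurkb, the kinase, was at 61.8, 44.2 and 43.7 CPM in WT and at 95.8, 125 and 72.2 CPM in KO. The groups were apart, with means of 49.9 ± 10.3 and 97.7 ± 26.4 CPM (SD, n = 3) and a log2 fold change of 0.97 (SE 0.31), or 0.75 without KO 2. Among the pairs 1 and 3 it rose 1.60-fold (log2 0.67, SE 0.12, edgeR adjusted p = 0.014, with 0.0066 to 1.00 over the settings tried). Cdca8, which encodes borealin, was at 70.05, 56.1 and 72.0 CPM in WT and at 107, 144 and 97.4 CPM in KO. The groups were again apart, with a log2 fold change of 0.81 (SE 0.27) over 6 libraries and 0.63 without KO 2. Cdca8 rose 1.44-fold in the pairs 1 and 3 (log2 0.52, SE 0.12, edgeR adjusted p = 0.0496, with 0.027 to 1.00 over the settings tried). Birc5, which encodes survivin, was at 103, 59.3 and 33.9 CPM in WT and at 144, 159 and 51.4 CPM in KO. KO 3 lay below both WT 1 and WT 2, so that the groups overlapped although each pair had the KO library higher. Its rise in the pairs 1 and 3 was 1.45-fold (log2 0.53, SE 0.12, edgeR adjusted p = 0.049, with 0.030 to 1.00 over the settings tried). Incenp, the scaffold, was at 40.6, 51.4 and 64.8 CPM in WT and at 46.9, 120 and 63.0 CPM in KO, and its log2 fold change of 0.55 was 0.071 without KO 2.

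All 10 spindle motors and microtubule factors were above 0 over 6 libraries (median log2 fold change 0.80), with pair medians of 0.44, 1.53 and 0.15. Kpna2, an importin alpha that carries proteins into the nucleus and holds back spindle assembly factors, was at 215, 113 and 117 CPM in WT and at 357, 266 and 181 CPM in KO. KO 3 lay below WT 1, KO 1 was the highest, and the log2 fold change of 0.86 (SE 0.38) was the same without KO 2. In the pairs 1 and 3 Kpna2 had the smallest adjusted p of the 40 genes and rose 1.60-fold (log2 0.68, SE 0.11, edgeR adjusted p = 0.0048, with 2.42e-05 to 1.00 over the settings tried). Prc1, which bundles the microtubules of the midzone, was at 23.4, 22.3 and 25.2 CPM in WT and at 32.8, 87.8 and 36.8 CPM in KO. The WT libraries differed by at most 1.13-fold and all KO libraries lay above them. KO 2 raised the log2 fold change from 0.56 without it to 1.15 (SE 0.42). Kif20a, a kinesin of the midzone, was at 49.3, 31.2 and 39.0 CPM in WT and at 74.7, 81.8 and 54.2 CPM in KO, also without overlap, with a log2 fold change of 0.82 (SE 0.30) and of 0.69 without KO 2. Hmmr, a spindle pole protein, likewise had no overlap, with KO 3 at 32.0 CPM and WT 3 at 30.5 CPM, and a log2 fold change of 0.79, or 0.36 without KO 2. Kif23, the other midzone kinesin, and Kif4, a chromosome-bound kinesin, rested on KO 2. Kif23 was at 10.3, 16.5 and 14.9 CPM in WT and at 14.3, 59.3 and 13.4 CPM in KO, and its log2 fold change of 1.06 was -0.0073 without KO 2. Kif4 went from 0.65 to 0.047. Kif11, the motor that pushes the spindle poles apart, Kif2c, a kinesin that takes microtubules apart, Tpx2, which activates Aurora A, and Nusap1, a microtubule bundler, had log2 fold changes of 0.73, 0.50, 0.55 and 0.80. Without KO 2 these were 0.27, 0.29, 0.34 and 0.44. All 4 were higher in KO in 3 of 3 pairs, Kif2c by only 0.013 in pair 3.

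Anaphase ubiquitination was covered by 3 genes, all higher in KO in 3 of 3 pairs (median log2 fold change 0.78; pair medians 0.51, 1.40 and 0.36). Cdc20, the activator of the anaphase-promoting complex, was at 139, 113 and 109.8 CPM in WT and at 221, 201 and 141 CPM in KO. The groups did not overlap, although KO 3 and WT 1 were close, and the log2 fold change was 0.64 (SE 0.28), or 0.58 without KO 2. It missed the threshold in the pairs 1 and 3 (log2 0.52, edgeR adjusted p = 0.053). Ube2c, the ubiquitin-conjugating enzyme of the complex, was at 61.8, 43.9 and 30.8 CPM in WT and at 87.1, 154 and 43.1 CPM in KO, with overlap at KO 3 and a log2 fold change of 1.06 that was 0.52 without KO 2. Cdca3, part of a ubiquitin ligase that has the CDK1 inhibitor WEE1 degraded, had a log2 fold change of 0.78, or 0.45 without KO 2.

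Both cytokinesis genes were higher in KO in each pair (pair medians 0.34, 1.13 and 0.42). Ect2, the exchange factor that switches on RhoA at the division plane, was at 55.2, 39.9 and 48.95 CPM in WT and at 73.4, 87.8 and 68.0 CPM in KO. The groups were apart, with a log2 fold change of 0.67 (SE 0.26) and of 0.56 without KO 2. Anln, the contractile ring protein anillin, was at 28.2 to 37.1 CPM in WT and at 33.8 to 64.1 CPM in KO, with overlap and a log2 fold change of 0.62, or 0.37 without KO 2.

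Both chromosome structure genes were above 0 over 6 libraries (pair medians 0.081, 1.47 and 0.37). Top2a, the topoisomerase that untangles sister chromatids, was at 85.7, 117 and 114 CPM in WT and at 99.9, 253 and 159.9 CPM in KO. KO 1 lay below WT 2 and WT 3, and the log2 fold change was 0.70 (SE 0.37), or 0.30 without KO 2. Mki67, which encodes Ki-67, a coat protein of mitotic chromosomes used as a mark of cycling cells, was at 20.7, 34.04 and 31.0 CPM in WT and at 19.9, 122 and 36.7 CPM in KO. KO 2 alone was high, and the log2 fold change of 1.06 (SE 0.63) was -0.017 without it.

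The 40 genes did not share a single profile over the libraries, and part of their variation went with transcript length. Over the 40 genes, which share libraries and depth, log2 CPM correlated at r = 0.988 between WT 1 and KO 1 and at 0.953 between WT 3 and KO 3, but at 0.759 between WT 1 and WT 3. WT 2 correlated at 0.903 with KO 2 and at 0.928 with KO 1. Among all genes, transcripts over 4000 nt relative to those under 1500 nt deviated by -0.92, -0.078 and 0.90 log2 units in WT 1 to 3 and by -1.12, 0.59 and 0.63 in KO 1 to 3. The 5 members under 1500 nt (Birc5, Cenpa, Spc24, Spc25 and Ube2c) had median deviations from their means of 0.70, -0.41 and -1.12 in WT and 0.88, 0.66 and -0.48 in KO. The 11 members over 4000 nt had -0.33, -0.38 and -0.19 in WT and -0.24, 0.97 and 0.094 in KO. Not all of them followed these medians. In both genotypes Mad2l1 (7557 nt) and Cdk1 (4375 nt) were highest in the library numbered 1 and lowest in that numbered 3. Members of either length class were above their means in KO 2, and the short ones were high in both libraries numbered 1 and low in both numbered 3. Spearman's rho of the difference with transcript length over the 40 genes was -0.42 in pair 1, 0.17 in pair 2 and -0.11 in pair 3. With offsets for transcript length in the fit, the median log2 fold change of the 40 was 0.74 over 6 libraries and 0.40 in the pairs 1 and 3, and 0 of the 40 were called in either.

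Some of these counts may hold reads of a neighbour. The library kit does not mark strand, so reads from exons shared with a neighbour cannot be told apart. By their whole spans, introns included, 7 of the 40 genes overlap another gene with over 1000 counts in the 6 libraries. They are Ccna2 with Exosc9, Cdc20 with Elovl1, Kif20a with Cdc23, Kif4 with Pdzd11, Nusap1 with Oip5, Prc1 with Rccd1 and Cdca8 with 9930104L06Rik. Whether their exons overlap was not checked. Of the 6 genes that rose in the pairs 1 and 3, Kpna2, Aurkb, Bub1 and Birc5 have no such neighbour. The pseudogenes Ccnb1-ps and Ccnb2-ps held 193 and 77 counts in all.

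As the genes were higher together within pairs, their promoters were searched for the elements through which late cell cycle genes are known to be repressed and activated. The cell cycle genes homology region (CHR) binds the DREAM and B-Myb-MuvB complexes, and the CCAAT box upstream of it binds NF-Y. RefSeq promoter windows of 250 bases before and 50 bases after the start site (build GRCm38.p6) were at hand for 33 of the 40 genes, in 35 windows. Aurkb, Ccna2, Tpx2, Kif20a, Spc24, Cdc25c and Incenp are not among them. The CHR letters TTTGAA were present on either strand in 27 windows, or 77.1% against 17.9% of all 32851 windows of the same length. The variant TTCGAA was present in 3, or 8.57% against 1.56%. CCAAT was present in 28, or 80.0% against 37.4%, and at least 2 times in 60.0% against 11.7%. Either CHR form together with CCAAT was found in 25 windows, or 71.4% against 7.53%. Within the windows TTTGAA lay from the start site to 49 bases after it in 48.6% against 2.25%, and CCAAT lay in the bases -50 to -1 in 54.3% against 9.03%. The median GC content was 58.7% against 52.7% of all windows. A match is a match of letters and does not show a bound site, and the genes were chosen as mitotic genes, a class already known for these elements.

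**Figure D5:**
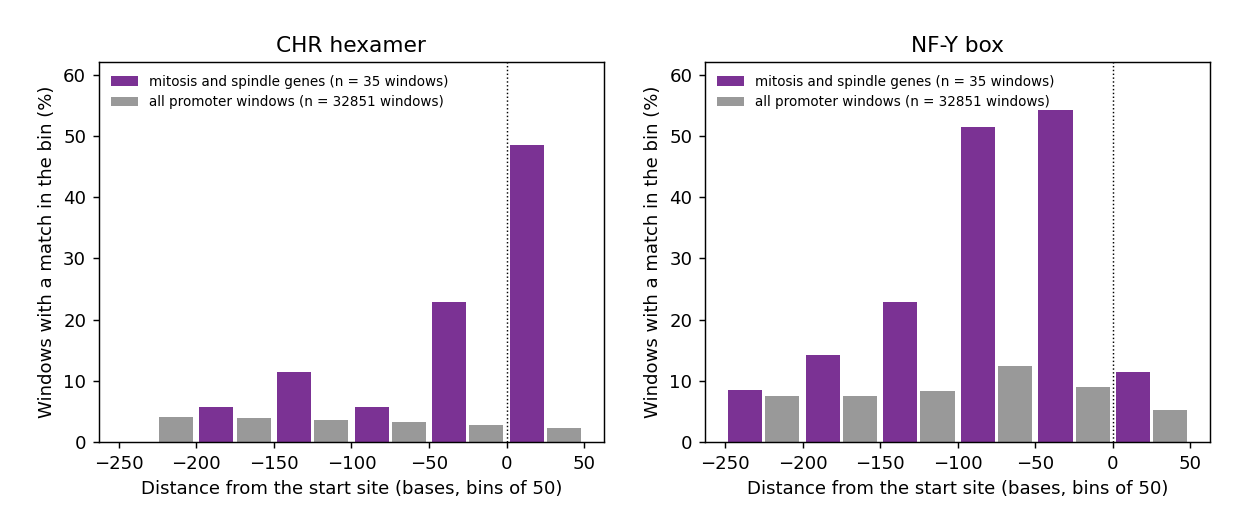
Share of promoter windows with a match that starts in each bin of 50 bases, for the CHR hexamer (left) and the NF-Y box (right), on either strand, in the 35 windows of mitosis and spindle genes and in all 32851 windows. The CHR hexamer peaks just after the start site at 48.6%, and the NF-Y box in the 100 bases before it at 51.4% and 54.3%.

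By the coordinates of the deposited table, on mouse build GRCm38, the genes that rose in the pairs 1 and 3 lie on different chromosomes or far apart. Kpna2 (ENSMUSG00000018362) spans chromosome 11 from 106988629 to 106999541, Birc5 (ENSMUSG00000017716) chromosome 11 from 117849251 to 117855743 and Aurkb (ENSMUSG00000020897) chromosome 11 from 69045647 to 69051664. Ccna2 (ENSMUSG00000027715) spans chromosome 3 from 36564865 to 36572150, Bub1 (ENSMUSG00000027379) chromosome 2 from 127801122 to 127831865 and Cdca8 (ENSMUSG00000028873) chromosome 4 from 124918465 to 124939311. The promoters of 4 of them show how the elements can be arranged. Each is printed 5′ to 3′ on the strand of the gene, from 250 bases before to 30 bases after the RefSeq start site, with matches in capitals. Kpna2 (chr11:106999496-106999775, minus strand) has its CHR at -35, on the reverse strand as TTCAAA, followed by CCAAT boxes at -25 and 6. Bub1 (chr2:127831830-127832109, minus strand) has the variant TTCGAA at 14 and CCAAT boxes at -68, where it reads ATTGG, and -42. Cdca8 (chr4:124936888-124937167, minus strand) has 4 boxes, all read as ATTGG, at -85, -51, -11 and 18, and a CHR at 13 that overlaps the last of them, the only overlap among the members' windows. Its RefSeq start site lies inside the span that the deposited table gives to the gene. Birc5 (chr11:117848987-117849266, plus strand) holds none of these letters in this window. Positions count from the first transcribed base as 0 and give the first base of the match.
Kpna2: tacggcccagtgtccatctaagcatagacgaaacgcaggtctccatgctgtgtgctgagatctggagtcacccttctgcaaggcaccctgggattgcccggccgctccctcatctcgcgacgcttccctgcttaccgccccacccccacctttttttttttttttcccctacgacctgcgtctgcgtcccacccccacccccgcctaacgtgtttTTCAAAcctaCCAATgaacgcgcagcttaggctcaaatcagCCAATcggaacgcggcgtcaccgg
Bub1: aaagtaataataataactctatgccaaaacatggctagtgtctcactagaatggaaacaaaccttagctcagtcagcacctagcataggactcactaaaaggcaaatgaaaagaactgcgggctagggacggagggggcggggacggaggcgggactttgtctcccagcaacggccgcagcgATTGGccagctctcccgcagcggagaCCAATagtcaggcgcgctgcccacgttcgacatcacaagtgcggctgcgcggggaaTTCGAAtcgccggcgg
Cdca8: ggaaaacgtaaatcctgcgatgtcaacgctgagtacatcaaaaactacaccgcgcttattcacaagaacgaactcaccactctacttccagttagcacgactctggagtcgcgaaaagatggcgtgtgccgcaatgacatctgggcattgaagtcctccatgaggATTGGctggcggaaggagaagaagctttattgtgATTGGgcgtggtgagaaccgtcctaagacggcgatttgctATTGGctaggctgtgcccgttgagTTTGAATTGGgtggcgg
Birc5: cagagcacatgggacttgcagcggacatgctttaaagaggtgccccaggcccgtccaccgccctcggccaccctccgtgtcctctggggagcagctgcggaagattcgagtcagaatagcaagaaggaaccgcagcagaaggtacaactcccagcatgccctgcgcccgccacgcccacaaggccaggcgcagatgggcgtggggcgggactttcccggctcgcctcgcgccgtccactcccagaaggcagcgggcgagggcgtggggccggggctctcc

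Beyond the 40, the lists of other mitotic and S phase genes had smaller median differences than the 40, and edgeR called 0 of their genes over 6 libraries. Against 1.53% of all genes, those higher in KO at an unadjusted p under 0.05 were 3 of 39 in the spindle and cytokinesis list, 3 of 22 in that of condensin and cohesin, 2 of 22 transcription regulators, 1 of 40 S phase genes and 0 in the others. All KO libraries lay above all WT libraries in 2.27% of all genes. In the same order of lists the counts were 9 of 39, 2 of 22, 4 of 22 and 5 of 40. They were 2 of the 32 other kinetochore and checkpoint genes, and 0 for the anaphase-promoting complex and for mitotic entry control and exit. Among all genes tested 49.3% had a log2 fold change above 0 over 6 libraries and 48.5% in the pairs 1 and 3. Of 39 other spindle and cytokinesis genes 36 were above 0 (median 0.53), with pair medians of 0.26, 1.10 and 0.24. In the pairs 1 and 3, 0 of them passed. Kif22, a chromosome-bound kinesin, was at 67.2, 48.0 and 59.7 CPM in WT and at 102, 163 and 79.4 CPM in KO, and Haus8, a subunit of the augmin complex, at 16.6 to 22.8 CPM and 25.4 to 33.5 CPM. Neither overlapped between groups, and their log2 fold changes were 0.97 (SE 0.34) and 0.68 (SE 0.29) over 6 libraries and 0.50 and 0.58 in the pairs 1 and 3. Of 32 other kinetochore and checkpoint genes 31 were above 0 (median 0.29) and 0 passed in the pairs. Cenpn, which reads the centromere nucleosome, and Zwilch, of the complex that brings dynein to kinetochores, had log2 fold changes of 0.52 and 0.55.

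Condensin and cohesin genes were above 0 in 20 of 22 (median 0.21), and 1 rose in the pairs 1 and 3. That was Smc2, a core subunit of both condensins, at 89.1, 86.3 and 88.0 CPM in WT and at 135, 132 and 127 CPM in KO. The groups were apart, KO 2 did not stand out, and the log2 fold change in the pairs was 0.56 (SE 0.11, edgeR adjusted p = 0.032). In the pairs 15 of the 22 genes were above 0, against 48.5% of all genes, with Smc4 at 0.0045. Ncaph, a condensin I subunit, had a log2 fold change of 0.69 (SE 0.29) over 6 libraries and of 0.36 in the pairs. The 17 genes of the anaphase-promoting complex and its partners were above 0 in 10 (median 0.015), against 49.3% of all genes. Fbxo5, its inhibitor EMI1, and Ube2s, its chain-extending enzyme, had 0.72 and 0.26. In the pairs 1 and 3 these were 0.083 and 0.16, and Fbxo5 was highest in KO 2, at 83.1 CPM.

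Among 22 genes of the DREAM, B-Myb and FOXM1 machinery and their E2F and NF-Y partners 18 were above 0 (median 0.20; pair medians -0.053, 0.46 and 0.12), with 0 past the threshold in the pairs. Mybl2, which encodes B-Myb, was at 32.7, 21.8 and 35.7 CPM in WT and at 48.7, 103 and 55.6 CPM in KO. The groups did not overlap, and the log2 fold change was 1.20 (SE 0.38) over 6 libraries and 0.61 in the pairs 1 and 3. E2f2 was at 93.0 CPM in KO 2 against 6.90 to 12.3 CPM in the other 5 libraries. Of 15 genes that control mitotic entry, brakes and activators alike, or act in mitotic exit, 13 were above 0 over 6 libraries (median 0.12). In the pairs 7 of the 15 were above 0 (median -0.0013), against 48.5% of all genes. Cdc14a, a phosphatase, had a log2 fold change of -0.61 (SE 0.55) and Pkmyt1, which inhibits CDK1, one of 0.52 (SE 0.37). In the pairs 1 and 3 these were -0.65 and -0.021, and Pkmyt1 was highest in KO 2, at 52.55 CPM. DNA replication and S phase genes were above 0 in 38 of 40 (median 0.27), with pair medians of 0.16, 0.28 and 0.36. In this list pair 3 had the highest median, whereas pair 2 had it for the mitosis and spindle genes. The difference between the lists was not tested. Rrm2, the ribonucleotide reductase subunit of S phase, at 242, 107 and 114 CPM in WT and 373, 632 and 208 CPM in KO, rose in the pairs 1 and 3 (0.74 on the log2 scale, edgeR adjusted p = 0.0034), as did Ccne1, the cyclin of S phase entry (0.54, edgeR adjusted p = 0.047). Mcm10, which helps start replication forks, had a log2 fold change of 0.55 (SE 0.25) over 6 libraries.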

How the data were processed

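RNA-seq was measured in 6 MEP libraries. The deposited values were whole-number read counts per Ensembl gene, with no scaling. FastQC 0.11.5, STAR 2.5.3a and edgeR are listed as tools, per the submitters' processing notes, beside the builds GRCm38.p3 and GRCh38.p3. Which program counted reads, whether it used strand and which annotation it read is not given in the sources used here. Per the labels' protocols, SMART-Seq v4 amplified the RNA and Nextera XT, a kit that does not mark strand, made the libraries. The table held no further sample columns.

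Low counts were filtered by edgeR 4.0.16 (filterByExpr, minimum count 10, minimum total 15) in R 4.3.3, and libraries were scaled by TMM. Genotypes were compared by edgeR's quasi-likelihood test, two-sided, with Benjamini-Hochberg adjustment over all genes tested and a threshold of 0.05. SE stands for the standard error of a log2 fold change, worked back as its size divided by the square root of the test's F statistic. Values of log2 CPM add a prior count of 2. CPM values come from the counts and TMM-scaled library sizes. Total counts of 13402209 to 22986837 put 3 counts, the floor, at 0.138 to 0.220 CPM, which covers counting error only. Transcript lengths are those of the longest of the best-ranked principal transcripts in GENCODE M21. Where a gene had no principal transcript, its longest transcript was used. Of 52459 gene IDs 52319 matched that release.

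The labels do not say what a replicate number stands for. After subtraction of group means, log2 CPM correlated across genes at 0.53, 0.16 and 0.63 for the numbers 1, 2 and 3. As each was over 0.1, the numbers were taken as pairs, a choice made from these same data. Deviations from a group mean cancel out within the group, so the 3 values are not separate observations. For number 2 this is weak, as WT 2 correlated with KO 2 at 0.918 but with KO 1 at 0.958 and KO 3 at 0.954.

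The members and lists were chosen with earlier results of these data known. The genes described by library are, in each role group, that of highest mean CPM and those of smallest p over 6 libraries, and every member past the threshold in the pairs 1 and 3. Cdk1, Incenp, Kif23, Ube2c and Mki67 are also given by library and were chosen after their values were seen. From each list of other mitotic or S phase genes, those past the threshold and the 2 of smallest p over 6 libraries are named, and of the marker lists those past the threshold in the pairs 1 and 3. Alternatives were the replicate block, DESeq2 1.42.0, RLE and upper-quartile scaling, no filter on low counts, the newer quasi-likelihood method, leaving out each library and, chosen after seeing the data, offsets for transcript length. The fits were also run on simulated counts, whose outcome is not given here and backs no result above.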

Additional observations from a re-analysis of the deposited data

How the results depend on the processing

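Over all 6 libraries the 40 genes kept a positive median log2 fold change, 0.44 to 0.89, under every alternative, lowest without KO replicate 2. Between 37 and 40 of them were above 0, and 0 were called in any alternative. DESeq2 called 6 genes where edgeR called 0, none of them among the 40. Leaving out 1 library at a time turned the direction of 5 genes. The log2 fold change ran from -0.29 to 0.67 for Cenpa, from -0.45 to 0.84 for Mad2l1 and from -0.060 to 1.05 for Spc24, each lowest without KO replicate 1. It ran from -0.0073 to 1.39 for Kif23 and from -0.017 to 1.46 for Mki67, both lowest without KO replicate 2. The replicate block raised the members at an unadjusted p under 0.05 from 8 to 23 and changed no call over 6 libraries.

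In the pairs 1 and 3 the calls depended on the fit. Without the replicate block 0 genes and 0 of the 40 were called, with a median log2 fold change of 0.34. RLE scaling called 64 genes and 3 of the 40, and the newer quasi-likelihood method 226 and 10. DESeq2 called 107 genes and 4 of the 40. Without a filter on low counts 190 genes were called and the median was 0.33. With transcript length offsets 3 genes and 0 of the 40 were called, the median was 0.40, and Kif4 turned from -0.056 to 0.077. The cause of these changes was not tested. With 1 residual degree of freedom the pairs cannot stand without the spread borrowed across genes, and no library can be left out of them with a test. The lowest count of any member in a library was 87, that of Cdc25c in KO 3, against a floor of 3.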
